A study of Mus musculus with 4 samples.

Results

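Interneurons of the mouse hippocampus that express the cannabinoid receptor gene Cnr1 and the caudal-lineage gene Adarb2, but not Vip, were taken from single-nucleus RNA-seq libraries. They were selected on measured counts of unique molecular identifiers (UMIs, each 1 counted transcript). A barcode was a member when it held at least 500 genes, under 5% mitochondrial UMIs, a Gad1 and Gad2 sum of 3 or more UMIs, at least 4 Cnr1 UMIs and at least 3 Adarb2 UMIs. Vip, Pvalb and Lamp5 could each have at most 1 UMI and Sst at most 2, and fewer than 2 of the 6 glial genes Mobp, Mog, Prr5l, Gja1, Fgfr3 and Inpp5d could be detected. This rule kept 278 of 55295 nuclei, and 278 of the 3101 inhibitory nuclei, which are the nuclei that pass the same quality, Gad1 and Gad2, and glial limits.

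The study compared both hippocampi of wild-type (WT) mice with those of knock-in (KI) mice, which carry the R87C substitution on 1 copy of Cyfip2 (Cyfip2+/R87C), a germline allele that models an infantile epilepsy syndrome. Cyfip2 is a subunit of the WAVE complex, which drives branched actin assembly. Each genotype had 2 mice and each mouse 1 library, all given the same batch in the labels. The mice were on a C57BL/6N background, and tissue was taken at the last of the ages at which the study collected RNA. The treatment label of KI replicate 2 reads R88C while its protocol reads R87C, and it was kept with KI by its title and genotype. The allele itself could not be read from these counts.

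Interneurons that hold cholecystokinin (Cck) and the CB1 receptor encoded by Cnr1 mostly arise in the caudal ganglionic eminence and form basket and dendrite-targeting synapses on pyramidal cells. CB1 sits on their axon terminals, where endocannabinoids released by an active pyramidal cell bind it and suppress GABA release. Some of these cells also carry Vip, others the vesicular glutamate transporter Slc17a8, and the neighbouring Lamp5 interneurons include neurogliaform cells.

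The libraries held 73009975 to 80913580 UMIs, and member nuclei numbered 84 and 58 in WT replicates 1 and 2 and 66 and 70 in KI replicates 1 and 2. Median depth per member nucleus was 8631 and 8656.5 UMIs in WT and 9732 and 7743 UMIs in KI, against 6097.5 to 7653 UMIs in the other inhibitory nuclei. Malat1, a nuclear noncoding RNA, took 8.89% and 8.71% of all UMIs in WT mice but 13.7% and 12.1% in KI mice. Pairs of libraries shared 40 to 67 barcodes, but no member barcode was shared. Between replicates, member sums differed by more than sampling noise, with a chi-square per degree of freedom of 1.75 in WT and 1.97 in KI. Levels below are counts per 1000000 UMIs of the member nuclei of a library (CPM), and values run in the order WT replicates 1 and 2, then KI replicates 1 and 2. The edgeR p-values for genotype use the spread between these mice, estimated largely across genes and not for each gene alone. Tests with library as a block use the spread left within libraries, and intervals cover counting error only.

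The genes of the rule describe the selection and were not tested. A member nucleus held between 4 and 55 Cnr1 UMIs, with a median of 8, and library medians of 9, 8, 7 and 7. Adarb2, which encodes an RNA-editing enzyme homologue and marks caudal-origin interneurons, ran from 3 to 701 UMIs with a median of 115. Gad1 and Gad2, the GABA-synthesizing enzymes, had medians of 2 and 3 UMIs, with 27 nuclei at 0 for Gad1 and 10 at 0 for Gad2. Summed, Cnr1 stood at 1147, 1032, 812 and 1098 CPM and Adarb2 at 16689, 13679, 13669 and 14777 CPM. KI replicate 1 was lowest for Cnr1, and the genotypes overlapped for both.

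The limits differed in how many nuclei lay at them. Just inside the Cnr1 limit, 43 members held 4 Cnr1 UMIs, and just outside, 69 otherwise eligible nuclei held 3. In all, 738 nuclei failed on Cnr1 alone and 163 on the Gad1 and Gad2 sum alone. The Gad1 and Gad2 sum was 3 in 49 members and 2 in 54 excluded nuclei, whereas Adarb2 was 3 in 1 member and 2 in 6 excluded nuclei. Vip was 1 in 20 members and 2 in 5 excluded nuclei, Lamp5 1 in 14 and 2 in 7, Sst 2 in 4 and 3 in 3, and Pvalb 1 in 3 and 2 in 1. Of the glial genes, 1 was detected in 50 members and 2 in 12 excluded nuclei.

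Markers of lineage that the rule did not use were examined next. Lhx6, a transcription factor of medial-origin interneurons, had 0 UMIs in all 278 member nuclei, which allows up to 1.10 CPM over the 4 libraries. The other inhibitory nuclei held Lhx6 in 7.0% to 10.1% of nuclei after each nucleus had been thinned at random to 2000 UMIs. Other medial-origin markers were present in members, with Satb1 at 50.9, 91.1, 38.4 and 33.6 CPM and Nxph1 at 225, 218, 155 and 262 CPM. Sox6 was at 14.0, 0, 6.87 and 33.6 CPM. Npas1, a transcription factor of caudal-origin cells, was detected in 20.2%, 19.0%, 13.6% and 18.6% of thinned members, and in 0.193% to 1.09% of nuclei in an oligodendrocyte gate that should lack it. Before thinning the member shares were 61.9%, 51.7%, 47.0% and 48.6%. The median depth of the oligodendrocyte gate was only 1628 to 2079 UMIs. Prox1, another caudal-lineage factor, was found in 1.52% to 6.90% of thinned members and in 17.9% to 28.7% of oligodendrocyte nuclei and 6.45% to 10.9% of nuclei in an excitatory gate. Every library had a lower share in members than in either gate, so these gates give no background level for Prox1. In WT replicate 1, Prox1 was in 3.57% of thinned members against 8.87% of the thinned other inhibitory nuclei. Unthinned, these shares were 14.3% and 23.7%, so this caudal-lineage factor was not higher in members there.

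Cck itself was weakly detected. It was at 0 in 134 of 278 members, and 59.5%, 55.2%, 43.9% and 47.1% of member nuclei held a UMI. At 2000 UMIs the shares fell to 26.2%, 22.4%, 21.2% and 22.9%, against 16.4%, 21.6%, 12.0% and 12.2% in the oligodendrocyte gate. Thinning left out 550 of the 870 gate nuclei of WT replicate 2, where the member and gate shares were close. In that library the thinned share was 14.0% in the excitatory gate and 13.1% in the other inhibitory nuclei, and unthinned it was 55.2% in members and 30.7% in the oligodendrocyte gate. A Cck UMI in a single nucleus was therefore not taken as expression by itself. Summed Cck levels were 223, 99.7, 117 and 115 CPM in members and 65.4, 70.2, 35.5 and 44.0 CPM in the other inhibitory nuclei. Every library had a higher Cck level in members than in its other inhibitory nuclei, and WT replicate 1 stood apart from the other libraries. The label of Cnr1 interneurons without Vip follows from the rule, and these shares do not say which members were Cck cells.

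**Figure D1:**
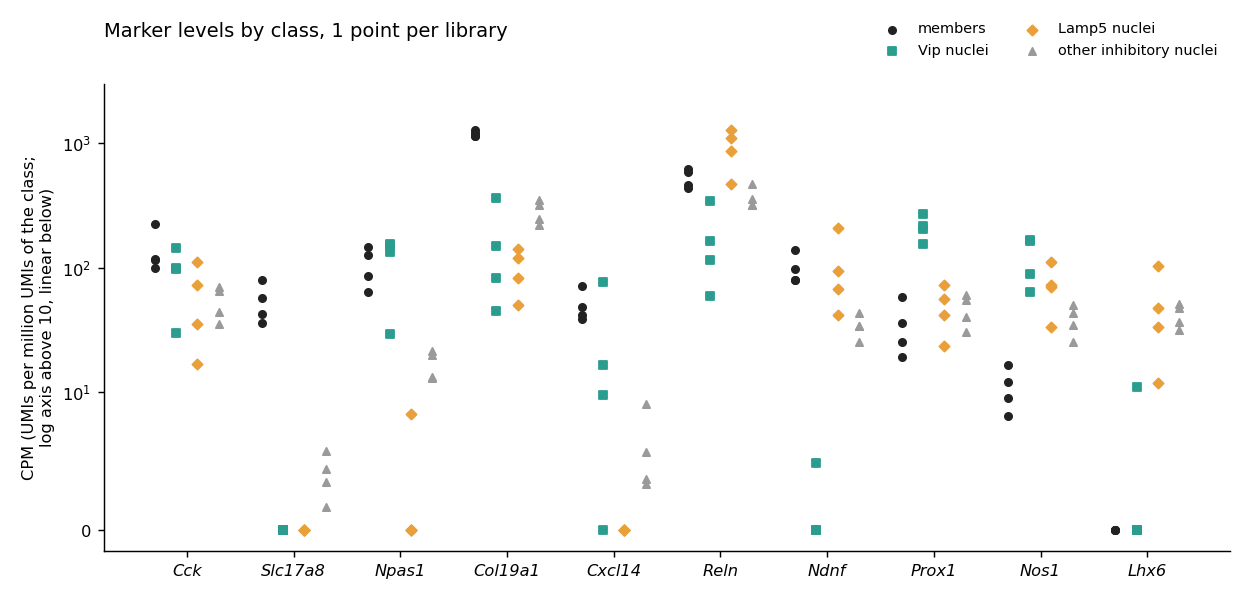
Levels of 10 genes outside the rule, in CPM on an axis that is logarithmic above 10 and linear below, with 1 point per library for member nuclei (black circles), Vip nuclei (green squares), Lamp5 nuclei (orange diamonds) and the other inhibitory nuclei (grey triangles). Lhx6 lies at 0 in every member library, Slc17a8 at 0 in every Vip and Lamp5 library, and Col19a1 at 1148 to 1273 CPM in members.

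Other genes were each detected in a part of the members. In the 259 members with at least 5000 UMIs, thinned to that depth, Reln (the secreted glycoprotein reelin) was detected in 50.6% of nuclei, Cck in 39.4%, Ndnf (a secreted neurotrophic factor) in 25.1%, Cxcl14 (a chemokine) in 21.2% and Slc17a8 in 15.8%. Calb1 (calbindin) was found in 15.4%, Npy (neuropeptide Y) in 12.7%, Htr3a (the ionotropic serotonin receptor) in 11.2%, Krt73 (a keratin) in 6.95% and Calb2 (calretinin) in 1.93%. Before thinning, 53.6% to 60.3% of members per library held Reln, 25.7% to 36.2% Ndnf, 24.2% to 33.3% Cxcl14 and 12.1% to 28.6% Slc17a8. In the oligodendrocyte gate the unthinned shares were 4.48% to 9.05% for Reln, 2.30% to 4.13% for Ndnf, 2.12% to 2.73% for Cxcl14 and 0.112% to 0.335% for Slc17a8. Htr3a and Krt73 were held by 16.7% to 22.4% and 8.57% to 13.1% of unthinned members, against at most 0.559% and 0.230% in the gate. Members were deeper than the gate, which can raise their unthinned shares. Thinned to 2000 UMIs, WT replicate 2 members and gate had 37.9% and 4.06% for Reln and 19.0% and 2.19% for Ndnf. There the shares were 8.62% and 2.81% for Cxcl14, 5.17% and 0% for Slc17a8, 6.90% and 0% for Htr3a, and 5.17% and 0.31% for Krt73. Unthinned, Calb1 was in 16.7% of WT replicate 1 members and 12.5% of the gate, and Npy in 19.0% and 5.16%. The thinned shares of Calb1, Npy and Calb2 were not above the gate in every library. At 2000 UMIs Calb1 was in 8.33% of WT replicate 1 members against 10.8% of the gate, and in 0% of KI replicate 2 members. Npy was in 6.06% of KI replicate 1 members against 6.62% of the gate, and Calb2 in 1.19% of WT replicate 1 members against 2.12%, so the shares of Calb1, Npy and Calb2 are not read as expression.

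Pairs of these genes were not spread evenly over the members, which is given as a description because nuclei of a mouse are not independent. Reln was detected in 58 of 65 nuclei with an Ndnf UMI (89.2%) and in 73 of 194 without one (37.6%). Per library the first share was 88.9%, 88.2%, 87.5% and 92.9% and the second 36.7%, 37.8%, 39.1% and 37.3%, so all 4 mice showed the same split. Cck went the other way, with 13 of 65 Ndnf nuclei and 89 of 194 nuclei without Ndnf (45.9%). That gap was narrow in WT, at 33.3% against 41.7% and 29.4% against 45.9%, and wide in KI, at 6.25% against 45.7% and 7.14% against 51.0%, with only 14 to 18 Ndnf nuclei per library.

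Slc17a8 nuclei had the opposite partners. Cck was detected in 30 of 41 nuclei with an Slc17a8 UMI (73.2%) and in 72 of 218 without (33.0%), and all 4 libraries kept that direction. Reln was detected in 9 of 41 Slc17a8 nuclei and in 122 of 218 others (56.0%), with 8 of the 9 in WT replicate 1. In that library the shares were closer, at 42.1% against 50.8%. In WT replicate 2 and KI replicates 1 and 2 they were 0%, 11.1% and 0% against 59.2%, 58.5% and 56.1%. Ndnf and Slc17a8 were found together in 4 nuclei. Krt73 nuclei held Cck in 15 of 18 cases, against 87 of 241 without Krt73. Per library these were 8 of 8, 3 of 4, 1 of 3 and 3 of 3 nuclei, and in KI replicate 1 the share did not lie above the 35.6% without Krt73. Cxcl14 nuclei held Reln in 41 of 55 cases (74.5%), against 90 of 204 (44.1%). In WT replicate 2 the Cck split rests on 4 of 5 nuclei against 18 of 49, in the library where the member share of Cck was close to that of the oligodendrocyte gate.

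**Figure D2:**
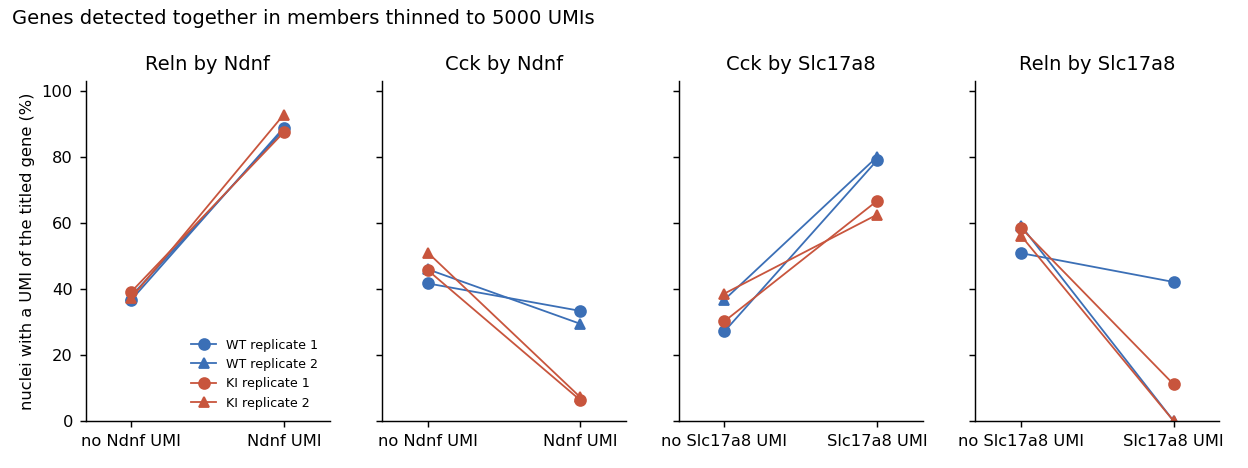
Share of members (%, thinned to 5000 UMIs) with a UMI of Reln or Cck, split by whether the nucleus held Ndnf or Slc17a8, with 1 line per library (WT blue, KI red; circles replicate 1, triangles replicate 2). Reln rises with Ndnf in all 4 libraries, to between 87.5% and 92.9%, and Cck rises with Slc17a8 in all 4.

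Members were next compared with Vip nuclei, inhibitory nuclei with at least 3 Vip UMIs and the same limits on Pvalb, Lamp5 and Sst. These numbered 11, 12, 32 and 11 per library, 66 in all, and sums per library and class were tested with edgeR's quasi-likelihood test with library as a block. Of 7249 genes tested, 230 (3.17%) were higher in members and 178 (2.46%) lower, but scaled by library totals 180 were higher and 249 lower, so the balance of directions depends on the scaling. The Vip nuclei differ from members by selection in Vip, Cnr1 and Adarb2, which were left out of the test. Without WT replicate 2 or KI replicate 1 the calls were 239 and 260 in all, against 408.

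Slc17a8, higher in members, was at 80.2, 36.1, 42.6 and 57.5 CPM in members and had 0 UMIs in all Vip nuclei, at least 7.80-fold higher against a floor of 3 counts over the class. Ndnf had 263 UMIs in members and 1 in Vip nuclei, a ratio of 40.8 (95% exact counting interval 7.26 to 1617). The GTPase-activating protein gene Arhgap6 had 209 against 2 UMIs, a ratio of 16.2 (4.43 to 135), the meiotic gene Mei4 242 against 3, a ratio of 12.5 (4.23 to 61.1), and the methyltransferase gene Trmt9b 150 against 2, a ratio of 11.6 (3.16 to 96.9). The phosphodiesterase gene Pde3a stood at 259 to 388 CPM in members and 0 to 34.3 CPM in Vip nuclei, with a log2 difference of 3.75 ± 0.34 (SE; edgeR adjusted p = 2.0e-10). None of these genes overlapped between the classes.

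Col19a1, a collagen, was at 1211, 1273, 1152 and 1148 CPM in members and 149, 44.8, 83.3 and 365 CPM in Vip nuclei, a log2 difference of 3.13 ± 0.27 (edgeR adjusted p = 4.2e-11). Reln was higher in members by 1.91 ± 0.25 log2 units and Calb1 by 2.56 ± 0.59 (edgeR adjusted p = 8.1e-07 and 0.0038). Calb1 rests on 134 UMIs against 4, with 3 of the 4 Vip libraries at 0. Thinned to 2000 UMIs, its member share was not above the oligodendrocyte gate in WT replicate 1 or KI replicate 2. The Calb1 difference is therefore one of summed counts, and the part of free RNA in it was not tested. A Col19a1 UMI was found in 80.3% to 84.5% of member nuclei per library, in 37.1% to 50.5% of the other inhibitory nuclei and in 1.38% to 2.96% of the oligodendrocyte gate. After thinning to 2000 UMIs the member shares were 59.1% to 72.4%, against 22.8% to 32.2% in the other inhibitory nuclei and at most 1.75% in the gate.

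Among the genes lower in members, the neuropeptide receptor gene Qrfpr was at 1.37 to 20.6 CPM in members and 33.2 to 282 CPM in Vip nuclei (log2 difference -3.78 ± 0.52, edgeR adjusted p = 2.3e-06). Sema5b, a semaphorin, was at 8.91 to 16 against 149 to 179 CPM, and Egfr, the epidermal growth factor receptor, at 20.6 to 28.0 against 149 to 598 CPM. The glypican Gpc6, the sialyltransferase St3gal1 and the phospholipid phosphatase Plpp4 were the other named genes, with log2 differences of -3.45, -3.29 and -3.27. Each of these 6 genes separated the classes with no overlap.

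Of the 35 genes of the interneuron list, 30 were tested, of which 6 were higher in members, 6 lower and 18 did not pass. Calb2 (log2 difference -4.27 ± 0.97), the tachykinin Tac2 (-2.36 ± 0.57), the nitric oxide synthase Nos1 (-3.15 ± 0.39) and Prox1 (-2.49 ± 0.27) were among the lower ones, with edgeR adjusted p of 0.0034, 0.0059, 2.8e-07 and 1.0e-08. Prox1 was at 25.5, 58.5, 35.7 and 19.2 CPM in members and 216, 269, 206 and 155 CPM in Vip nuclei. Synpr, a synaptic vesicle protein, and Erbb4 were the other two (-1.12 ± 0.16 and -0.80 ± 0.14, edgeR adjusted p = 4.6e-06 and 8.5e-05). Npas1, Cck and Htr3a did not pass, with log2 differences of 0.10 ± 0.29, 0.57 ± 0.28 and -0.54 ± 0.46 (edgeR adjusted p = 0.94, 0.34 and 0.71). Nos1 was lower in members than in Lamp5 nuclei as well (-2.48 ± 0.46, edgeR adjusted p = 0.00019).

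Lamp5 nuclei, inhibitory nuclei with at least 3 Lamp5 UMIs and the corresponding limits, numbered 13, 14, 9 and 10, or 46 in all. Of 6675 genes, 293 (4.39%) were higher in members and 265 (3.97%) lower, and with library totals 249 and 315. The kinase gene Stk32a had 207 UMIs in members and 0 in Lamp5 nuclei, at least 10.8-fold higher, and Slc17a8 (151 against 0) and Cxcl14 (138 against 0) were at least 7.89-fold and 7.21-fold higher. Syt6, a synaptotagmin, had 386 UMIs against 1, a ratio of 60.5 (10.8 to 2397). The BMP-binding gene Bmper had 298 against 1, a ratio of 46.7 (8.32 to 1852), and Npas1 289 against 1, a ratio of 45.3 (8.07 to 1796). Pde3a was higher by 5.14 ± 0.44 log2 units (edgeR adjusted p = 3.2e-10). Pde3a was at 0, 0, 8.38 and 35.2 CPM in Lamp5 nuclei, and each of the others was at 0 in at least 3 of the 4 Lamp5 libraries.

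Of the interneuron list, 28 genes were tested against Lamp5 nuclei, with 13 higher in members and 4 lower. Npas3, a neuronal transcription factor, was at 3284, 3273, 2937 and 2830 CPM in members and 62.4, 175, 184 and 152 CPM in Lamp5 nuclei (log2 difference 4.51 ± 0.23, edgeR adjusted p = 4.8e-15). Col19a1 was higher by 3.73 ± 0.24 and the vesicle protein Synpr by 3.54 ± 0.40 (edgeR adjusted p = 5.0e-13 and 6.3e-08). Cck, at 72.7, 111, 16.8 and 35.2 CPM in Lamp5 nuclei, was higher in members by 1.25 ± 0.33 (edgeR adjusted p = 0.010), although WT replicate 2 members (99.7 CPM) lay below its Lamp5 nuclei.

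Lower in members were the long noncoding RNA Gm34623 (0 UMIs against 24, at least 51.0-fold) and Lhx6 (0 against 21, at least 44.6-fold), both against a floor of 3 counts over the members. Sfta3-ps had 2 UMIs against 23, a ratio of 73.3 (18.1 to 642). The calcium-binding membrane protein Mctp2 (-6.12 ± 0.50), the zinc-finger gene Zbtb7c (-4.74 ± 0.77), the secreted protease Pappa (-4.65 ± 0.56) and the transcriptional coactivator Eya4 (-4.47 ± 0.80) followed on the log2 scale. In Lamp5 nuclei Zbtb7c was at 31.2, 23.8, 184 and 0 CPM and Eya4 at 166, 15.9, 0 and 70.4 CPM, so 1 Lamp5 library of each overlapped the members at 0, and KI replicate 1 stood apart for Zbtb7c. Nxph1, a neurexin ligand of medial-origin cells, was at 155 to 262 CPM in members and 981 to 2609 CPM in Lamp5 nuclei (log2 difference -3.10 ± 0.19, edgeR adjusted p = 2.1e-13). Satb1, another medial-origin marker, went the other way, at 33.6 to 91.1 CPM in members and 0 to 15.9 CPM in Lamp5 nuclei (3.02 ± 0.61, edgeR adjusted p = 0.00068). Sox6, also a medial-origin marker, overlapped between the classes and was not tested. Reln was lower in members by 0.66 on the log2 scale (edgeR adjusted p = 0.021), and Ndnf did not pass (0.07 ± 0.27, edgeR adjusted p = 0.95). No difference was thus detected from Lamp5 nuclei in Ndnf or from Vip nuclei in Npas1.

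The share of members was then compared between genotypes. Members were 0.526% (95% exact interval 0.419 to 0.650) and 0.441% (0.335 to 0.569) of all nuclei in WT and 0.526% (0.407 to 0.668) and 0.515% (0.402 to 0.650) in KI. The mean KI share was higher by 0.037 percentage points and the groups overlapped (exact two-sided permutation test, p = 0.667). That direction turned with the stricter rule (-0.028), and with nuclei of at least 5000 UMIs thinned to that depth and the rule applied anew. Members were then 0.623%, 0.419%, 0.369% and 0.366% of those nuclei (KI minus WT -0.153 percentage points). Nuclei below 5000 UMIs were left out, so these shares are of 5942, 5968, 5956 and 6561 nuclei. The UMI minimums of the rule were unchanged and are harder to reach at that depth. Of inhibitory nuclei at full depth, members made up 10.2% (8.19 to 12.4) and 9.35% (7.18 to 11.9) in WT and 8.89% (6.95 to 11.2) and 7.67% (6.03 to 9.59) in KI. The KI mean was lower by 1.48 percentage points with no overlap, and the exact test gave p = 0.333, the smallest that 2 against 2 libraries allow. With nuclei of at least 5000 UMIs thinned to that depth and the rule applied anew, the shares of inhibitory nuclei were 9.11%, 8.04%, 5.14% and 4.97%. These rest on 406, 311, 428 and 483 inhibitory nuclei, with 37, 25, 22 and 24 members. No change in the number of these cells was detectable at this size.

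**Figure D3:**
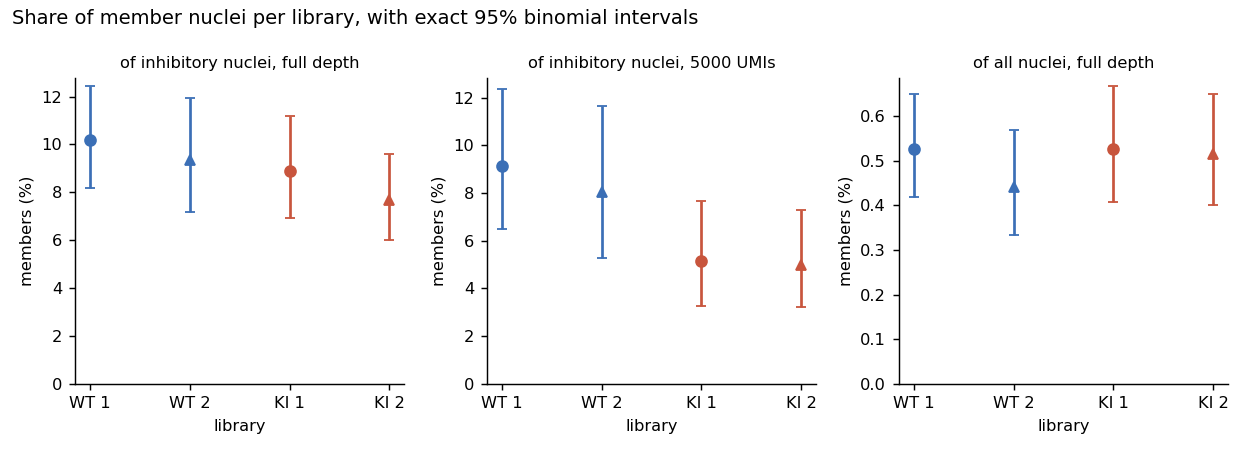
Share of member nuclei (%) per library, of inhibitory nuclei at full depth, of inhibitory nuclei at 5000 UMIs, and of all nuclei at full depth, with exact 95% binomial intervals (WT blue, KI red). At 5000 UMIs, shallower nuclei were left out and the others thinned to that depth. Both KI libraries lie below both WT libraries among inhibitory nuclei, at 8.89% and 7.67% against 10.2% and 9.35%, with overlapping intervals.

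Gene expression in the members was compared between KI and WT on counts summed per library, with edgeR's quasi-likelihood test and p-values adjusted over 8070 genes (Benjamini-Hochberg). Of these, 8 (0.0991%) rose in KI and 3 (0.0372%) fell at an adjusted p below 0.05. At an unadjusted p below 0.05 the counts were 405 (5.02%) and 342 (4.24%), the background for the lists further on. In CPM, both KI libraries lay above both WT libraries for 1030 of the 8070 genes and below them for 2230. A lack of overlap was thus common, more so on the lower side. Scaled by library totals in place of TMM factors, 4 genes rose and 3 fell, and the median log2 fold change over all tested genes moved from 0.01 to -0.10. DESeq2 called 0 genes, with 181 at an unadjusted p below 0.05. Leaving out WT replicate 1, WT replicate 2, KI replicate 1 or KI replicate 2 gave 17, 1, 32 and 187 calls, of which 7, 1, 8 and 11 were among the 11 genes, where the lone library of a genotype is assumed to vary like the others. Malat1 was the only gene of the 11 that passed in each of these fits, and without WT replicate 1 the log2 fold change of Dlx1as was -0.80 and missed the threshold. With a Cnr1 minimum of 8 and an Adarb2 minimum of 6 UMIs 0 genes passed (368 at an unadjusted p below 0.05), and with minimums of 2 and 2 UMIs 28 genes.

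The targeted gene Cyfip2 (chr11:46193850-46312859, GRCm38) was at 122, 138, 94.8 and 109 CPM, and the log2 fold change of -0.24 ± 0.21 did not pass (edgeR adjusted p = 0.80). Both KI libraries were below both WT libraries, as for 2230 of the 8070 tested genes. A substitution need not change the transcript level, so this is no check of the labels.

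Pycard (chr7:127989708-127993867), the inflammasome adaptor ASC, was at 11.5, 3.44, 45.3 and 33.6 CPM and rose 5.26-fold in KI (log2 fold change 2.39 ± 0.47, edgeR adjusted p = 0.0379). Zfp46 (chr4:136284683-136293942), a zinc-finger gene, was at 10.2, 15.5, 70.0 and 43.2 CPM and rose 4.88-fold (2.29 ± 0.39, edgeR adjusted p = 0.0160). Tmem165 (chr5:76183880-76209245), a Golgi protein needed for glycosylation, was at 47.1, 51.6, 126 and 94.3 CPM and rose 2.43-fold (1.28 ± 0.25, edgeR adjusted p = 0.0379). Without WT replicate 1 the log2 fold change of Pycard was 3.58. In all 3 genes both KI libraries lay above both WT libraries, and KI replicate 1 was the higher of the KI pair. In the other inhibitory nuclei the log2 fold changes were 1.58, 2.34 and 1.17 (edgeR adjusted p = 0.048, 0.032 and 0.060).

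Apod (chr16:31296192-31314808) and Ptgds (chr2:25466709-25470046) encode lipid-carrying secreted proteins that oligodendrocytes and meningeal cells make in quantity. Apod was at 34.4, 10.3, 150 and 52.7 CPM and rose 4.64-fold (log2 fold change 2.21 ± 0.42, edgeR adjusted p = 0.0367). Ptgds was at 54.7, 39.6, 158 and 117 CPM and rose 3.09-fold (1.63 ± 0.25, edgeR adjusted p = 0.0125). Neither gene overlapped between genotypes, and WT replicate 1 and KI replicate 2 were close for Apod. Leaving out 1 library gave Apod log2 fold changes of 1.23 to 3.42, with 1.23 without KI replicate 1 and 3.42 without WT replicate 1, and the call was lost without WT replicate 2 (1.67) or KI replicate 1.

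Both were at nearly the same level per nucleus in unrelated neurons. Ptgds had 0.512, 0.397, 1.74 and 1.04 UMIs per member nucleus and 0.494, 0.413, 1.59 and 0.897 per nucleus of an excitatory gate, against 1.93, 1.90, 5.42 and 5.14 in the oligodendrocyte gate. Apod had 0.321, 0.103, 1.65 and 0.471 UMIs per member nucleus, 0.247, 0.133, 1.67 and 0.366 per excitatory nucleus, and 1.04, 0.880, 8.22 and 2.60 per oligodendrocyte nucleus. The member and excitatory values ran in parallel over the libraries. The 10 oligodendrocyte markers summed to 244, 170, 172 and 211 CPM in members, higher in neither genotype. The part of RNA from outside the nucleus in these changes was not tested.

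Malat1 (chr19:5795690-5802672) was at 105493, 96668, 135808 and 146749 CPM and rose 1.51-fold (log2 fold change 0.59 ± 0.10, edgeR adjusted p = 0.0162). Its share of UMIs was also larger in the KI libraries as a whole, at 13.7% and 12.1% against 8.89% and 8.71%, and its log2 fold change in the other inhibitory nuclei was 0.67 (edgeR adjusted p = 0.014). Of the 7 tested abundant nuclear noncoding RNAs, Malat1 alone passed, with a list median of 0.19. Meg3, the next of them, was at 11987, 11520, 12590 and 12257 CPM (0.19 ± 0.12, edgeR adjusted p = 0.69).

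Arhgap6 (chrX:168795099-169304435) was at 48.4, 32.7, 122 and 101 CPM in members and rose 2.90-fold (log2 fold change 1.54 ± 0.26, edgeR adjusted p = 0.0160). In WT replicate 1, 1 nucleus held 19 of its 38 UMIs, and without the highest nucleus of each library the levels were 24.5, 26.1, 104 and 87.3 CPM, so the gap between the genotypes widened. In the other inhibitory nuclei it was at 105, 79.0, 131 and 177 CPM, with a log2 fold change of 0.84 (edgeR adjusted p = 0.055).

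The protocadherin Pcdh15 (chr10:73099342-74649737) passed with 227, 230, 346 and 486 CPM (log2 fold change 0.97 ± 0.19, edgeR adjusted p = 0.0379), and single nuclei held much of it. In KI replicates 1 and 2, 1 nucleus held 40.1% and 52.3% of its UMIs, and both nuclei also held Slc17a7, the vesicular glutamate transporter of excitatory neurons, at 3 and 4 UMIs. Without the highest nucleus of each library the levels were 167, 203, 218 and 242 CPM. Without nuclei with 2 or more Slc17a7 UMIs the log2 fold change was -0.039. In the other inhibitory nuclei it was 0.00.

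Dlx1as (chr2:71516454-71537891), the antisense transcript of the interneuron homeobox gene Dlx1, was at 390, 244, 117 and 141 CPM and fell 2.31-fold in KI (log2 fold change -1.21 ± 0.23, edgeR adjusted p = 0.0300). All 4 libraries held it in many nuclei, with 69 of 84, 45 of 58, 40 of 66 and 37 of 70 members carrying a UMI and no nucleus over 11.4% of a library's total. Per nucleus it was at 3.64, 2.45, 1.29 and 1.26 UMIs in members and 0.939, 1.14, 0.389 and 0.397 UMIs in other inhibitory nuclei, where it fell as well (-1.51, edgeR adjusted p = 0.0078). Excitatory nuclei held 0.0949 to 0.107 UMIs of it in all libraries.

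Dlx1 itself (chr2:71528113-71533981) lies within the span of Dlx1as on the other strand, and was at 52.2, 43.0, 23.3 and 24.0 CPM in members (-0.91 ± 0.33, edgeR adjusted p = 0.37). Whether strand was used in the counting is not given in the sources used here, so reads of the pair may be shared. Dlx6os1, an antisense transcript of another Dlx homeobox cluster on a different chromosome, was at 919, 757, 562 and 588 CPM (-0.44 ± 0.17, edgeR adjusted p = 0.38) and was lower in the KI libraries of the other inhibitory nuclei by 0.89 log2 units (edgeR adjusted p = 0.013). Both KI libraries lay below both WT libraries in members for all 3 transcripts, as for 2230 of the 8070 tested genes, and only Dlx1as passed there.

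The transcription factor Ikzf2 (chr1:69531214-69687245, Helios) was at 26.7, 53.3, 6.87 and 4.79 CPM and fell 5.93-fold (log2 fold change -2.57 ± 0.52, edgeR adjusted p = 0.0404). The KI levels rest on 5 and 3 UMIs, against 21 and 31 in WT. The ubiquitin ligase and JNK scaffold Sh3rf1 (chr8:61223872-61396071, POSH) was at 108, 129, 53.6 and 33.6 CPM and fell 2.47-fold (-1.30 ± 0.26, edgeR adjusted p = 0.0379). In the other inhibitory nuclei the log2 fold changes were -0.99 and -0.52 (edgeR adjusted p = 0.043 and 0.080). For neither gene did the genotypes overlap.

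The next genes in order of p did not pass. The growth factor Fgf1 was at 165, 134, 67.3 and 63.9 CPM (-1.09, edgeR adjusted p = 0.0523) and the membrane-raft protein Rftn1 (chr17:49992257-50190674) at 63.6, 84.3, 24.7 and 25.6 CPM (-1.42, edgeR adjusted p = 0.0523). In both, the KI libraries lay below the WT libraries with no overlap, which the naming required and which held for 2230 of the 8070 tested genes.

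**Figure D4:**
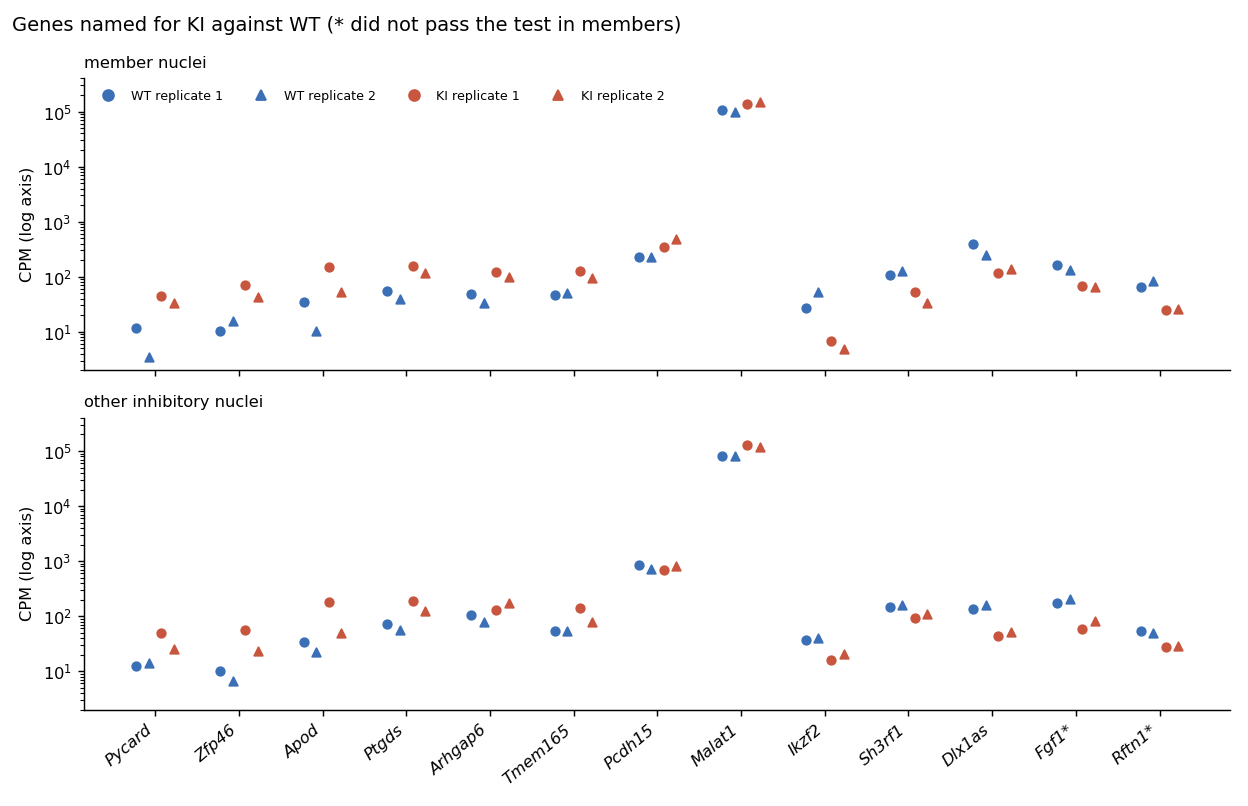
Levels per library (CPM, log axis) of the 11 genes that passed the test in members and of Fgf1 and Rftn1, which did not (marked with an asterisk), in members (top) and in the other inhibitory nuclei (bottom); WT is blue, KI red. In members, from WT to KI, Dlx1as lies at 244 to 390 CPM and 117 to 141 CPM, and Pcdh15 lies at 227 to 230 CPM and 346 to 486 CPM.

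Gene lists were described by how many tested members reached an unadjusted p below 0.05 and by their median log2 fold change, beside 5.02% higher, 4.24% lower and a median of 0.01 over all genes. No gene of a list other than Malat1, Apod and Ptgds passed the adjusted test. The interneuron list had 29 tested genes of 35, 5 of them lower and 0 higher at that unadjusted level, with a median of -0.22, and -0.20 against -0.25 in the other inhibitory nuclei over the 28 genes tested in both. Npas1 was at 148, 126, 63.2 and 86.3 CPM (-0.78 ± 0.23, edgeR adjusted p = 0.19) and the G-protein regulator Rgs12 at 239, 213, 126 and 125 CPM (-0.75 ± 0.20, edgeR adjusted p = 0.14), both without overlap. Of the 29 tested genes of this list 13 were lower in KI without overlap, beside 2230 of all 8070. Cck (-0.40 ± 0.27), Slc17a8 (-0.17 ± 0.32), Ndnf (-0.17 ± 0.25), Reln (0.05 ± 0.18) and Col19a1 (0.00 ± 0.15) did not pass either.

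Endocannabinoid genes other than Cnr1 had 12 tested of 16, 3 of them higher and 0 lower at the unadjusted level, with a median of -0.10. Mgll and Abhd6 encode hydrolases that degrade 2-arachidonoylglycerol, and Dagla and Daglb the lipases that make it. Mgll was at 141, 84.3, 100 and 160 CPM, Abhd6 at 36.9, 58.5, 68.7 and 62.3 CPM, Dagla at 16.5, 18.9, 8.24 and 22.4 CPM and Daglb at 19.1, 18.9, 43.9 and 27.2 CPM. Daglb and Abhd6 were higher in both KI libraries (1.02 ± 0.39 and 0.60 ± 0.28), with edgeR adjusted p of 0.38 and 0.50. Cnrip1, which binds the CB1 tail, was at 107, 107, 86.5 and 79.9 CPM (-0.25 ± 0.22).

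Genes that make, load and clear GABA showed no call. Of 9 tested genes of 11, 2 were lower and 0 higher at the unadjusted level, with a median of -0.24. The vesicular GABA transporter Slc32a1 was at 48.4, 39.6, 54.9 and 46.3 CPM. The glutamine transporter Slc38a1 was at 98.0, 86.0, 54.9 and 63.9 CPM (-0.53 ± 0.24, edgeR adjusted p = 0.49). Both KI libraries were below both WT libraries for Slc38a1, as for 3 of the 9 tested genes of this list and 2230 of all 8070. Slc32a1 overlapped between the genotypes.

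Receptors and channels had medians near that of all genes. GABA receptor subunits had 13 tested of 17 (1 higher, 0 lower, median 0.06), ionotropic glutamate receptors and their auxiliaries 27 of 30 (1 higher, 4 lower, median 0.00), and metabotropic glutamate receptors 6 of 7 (0 and 0, median -0.06). Sodium and calcium channels had 23 of 28 (0 and 1, median 0.08), potassium channels 34 of 39 (2 and 0, median -0.06) and neuromodulator receptors 17 of 47 (1 and 2, median -0.14). Grin1, the obligatory NMDA receptor subunit, was at 197, 203, 415 and 262 CPM (0.87 ± 0.21, edgeR adjusted p = 0.10), against an adjusted p of 0.047 by edgeR in the other inhibitory nuclei (0.75). Chrm2, a muscarinic receptor, was at 177, 108, 79.6 and 52.7 CPM (-1.01 ± 0.26, edgeR adjusted p = 0.14).

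Vesicle release genes had 32 tested of 38 (1 higher, 4 lower, median 0.06) and adhesion and scaffold genes of inhibitory synapses 31 of 33 (3 and 3, median 0.08). The calcium sensor Syt7 was at 67.5, 68.8, 28.8 and 38.4 CPM (-0.92 ± 0.29, edgeR adjusted p = 0.23), while Syt1, the fast release sensor, was at 3529, 3415, 3444 and 3673 CPM (0.14 ± 0.14). Neuropeptides and their processing genes had 12 tested of 26 (3 higher, 1 lower, median 0.18). The 3 granins Chga, Chgb and Scg2, which build dense-core granules, had log2 fold changes of 0.81, 0.69 and 0.76 with edgeR adjusted p of 0.37, 0.33 and 0.40. The WAVE complex and partners, the surroundings of Cyfip2, had 13 tested of 16 (0 and 0, median -0.04).

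Heat shock and chaperone genes leaned to one side. Of 13 tested of 20, 6 were lower and 0 higher at the unadjusted level, and all 13 had a negative log2 fold change, from -1.05 to -0.01, with a median of -0.54. None passed. Hsp90b1, the chaperone of the endoplasmic reticulum, was at 94.2, 56.8, 35.7 and 36.8 CPM (-0.98 ± 0.30, edgeR adjusted p = 0.21), the cytosolic chaperone Hspa8 at 174, 150, 67.3 and 120 CPM (-0.71 ± 0.24, edgeR adjusted p = 0.31) and mitochondrial Hspd1 at 45.8, 39.6, 22 and 16 CPM (-1.05 ± 0.36, edgeR adjusted p = 0.31). The same 13 genes had a median of -0.55 in the other inhibitory nuclei.

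Activity-induced genes were mostly too low to test, with 10 tested of 36 (1 higher, 3 lower, median -0.58, and -0.29 in the other inhibitory nuclei). Nr4a3, an orphan nuclear receptor, was at 20.4, 17.2, 1.37 and 1.60 CPM (-3.42 ± 0.82, edgeR adjusted p = 0.099). Homer1, a postsynaptic scaffold with an activity-induced short form, was at 221, 67.1, 67.3 and 47.9 CPM (-1.26 ± 0.36, edgeR adjusted p = 0.18). In WT replicate 1 the same nucleus held 83 of 174 Homer1 UMIs, 25 of 54 Bdnf UMIs, 7 of 16 Nr4a3 UMIs and 12 of 33 Pcsk1 UMIs, so 1 nucleus weighs on several genes of this list. Without each library's highest nucleus, Homer1 was at 119, 58.4, 49.0 and 43.9 CPM.

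Oxidative phosphorylation genes had 32 tested of 34 (0 higher, 3 lower, median -0.15) and mitochondrially encoded genes 8 of 11 (0 and 1, median -0.37), the latter summing to 714, 397, 356 and 467 CPM. Marker lists of other cell types were summed to gauge their presence. Excitatory markers summed to 508, 669, 455 and 376 CPM (5 of 10 tested, 0 higher, 1 lower, median -0.45), dentate granule markers to 293, 370, 313 and 291 CPM (5 of 8, 0 and 0, median -0.08) and astrocyte markers to 209, 255, 188 and 139 CPM (2 of 10, 0 and 0, median -0.45). Oligodendrocyte (6 of 10 tested), microglial (2 of 10), oligodendrocyte-precursor (1 of 8) and vascular markers (1 of 10) had 0 genes at the unadjusted level, with medians of 0.13, 0.12, 0.63 and 0.19. Medial-origin markers, with Lhx6 at 0 in every library, summed to 4359 to 4918 CPM (5 of 10, 0 and 1, median 0.01). Most of that sum was Erbb4, a neuregulin receptor gene, at 3947, 3960, 4100 and 4475 CPM, which was higher still in Vip nuclei at 6720 to 9204 CPM. The excitatory and astrocyte sums were lower in both KI libraries, and their part in the gene results was not tested. Lipid carriers and blood genes, the list that holds Apod and Ptgds, summed to 215, 110, 415 and 256 CPM (4 of 8, 2 higher, median 0.91).

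**Figure D5:**
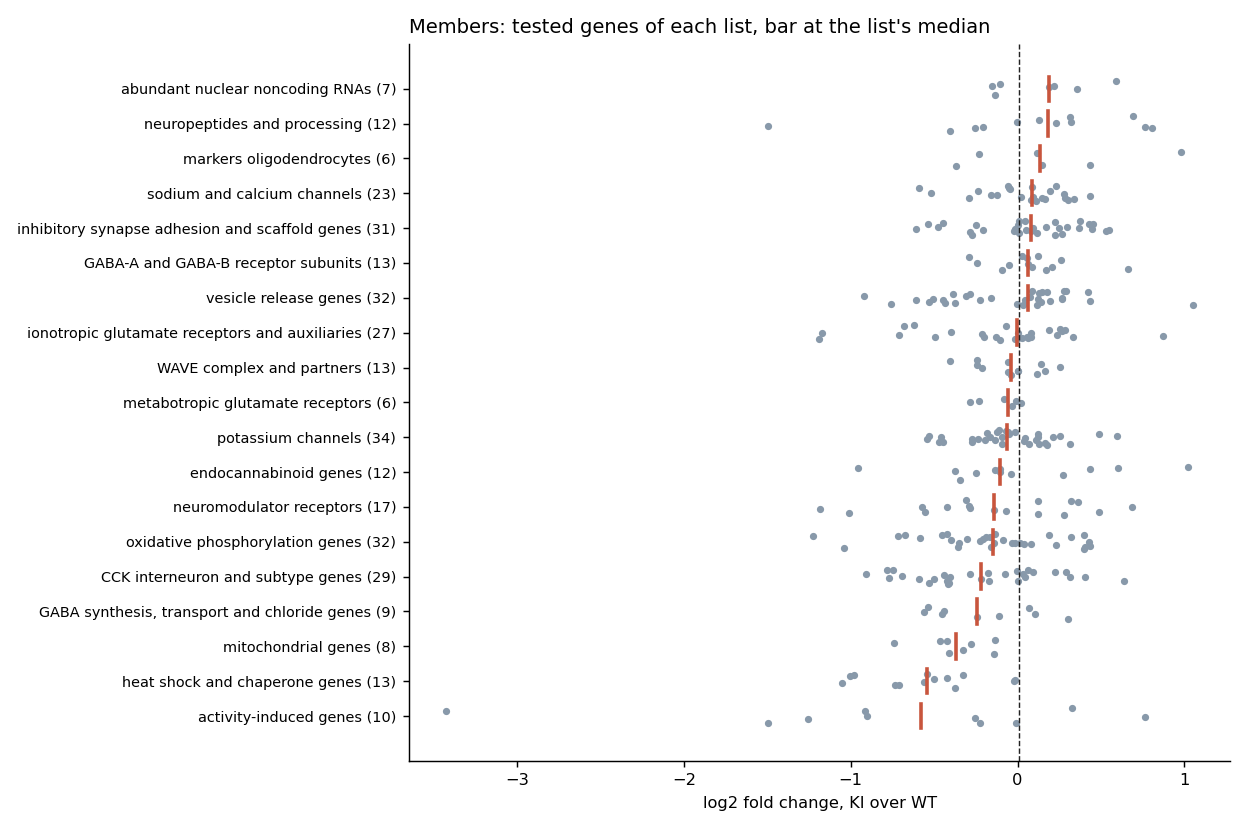
Log2 fold change of KI over WT in members for each tested gene (grey points) of 19 lists, with the number tested in brackets and the list median as a red bar. Heat shock and chaperone genes all lie below 0, with a median of -0.54, and the WAVE complex genes lie between -0.41 and 0.26.

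Whether the genotype difference was particular to the members was tested as a class-by-genotype term, against the other 2823 inhibitory nuclei, with library as a block. Of 13339 genes, 3 (0.0225%) passed, and DESeq2 called 0, with 83 at an unadjusted p below 0.05 against 653 by edgeR. Adamtsl1 (chr4:85514172-86428385), a secreted matrix protein, was at 54.7, 37.8, 106 and 91.1 CPM in members and 250, 164, 117 and 183 CPM in other inhibitory nuclei. Members were higher in KI without overlap and the other nuclei were not, and the log2 difference of the changes was 1.58 ± 0.28 (edgeR adjusted p = 0.0249). It passed as well without each library's highest nucleus (1.59, edgeR adjusted p = 0.0028), but not without WT replicate 1, WT replicate 2 or KI replicate 1, with log2 differences of 1.57, 1.61 and 1.14 (edgeR adjusted p = 0.50, 0.17 and 0.39).

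The other two rested on single nuclei. The noncoding RNA Gm32647 (chr7:94042691-94709171) was at 290, 246, 147 and 126 CPM in members and 165, 182, 287 and 186 CPM in the others (difference -1.43 ± 0.21, edgeR adjusted p = 0.0045). In WT, 1 nucleus held 86.0% and 78.3% of its UMIs, and without the highest nucleus the levels were 41.8, 54.9, 110 and 56.0 CPM and the difference was 0.27. The transcription factor Tshz2 (chr2:169633013-170071816) was at 31.8, 124, 24.7 and 22.4 CPM (difference -1.96 ± 0.33, edgeR adjusted p = 0.0249). In WT, 1 nucleus each held 64.0% and 83.3% of its UMIs, with 2 and 3 Slc17a7 UMIs, and in KI replicate 1, 1 nucleus held 66.7%. Tshz2 was at 11.7, 22, 8.34 and 14.8 CPM without the highest nucleus of each library, where the difference was -0.98 and did not pass. Gm32647 also missed the threshold without WT replicate 1 (-1.20) or KI replicate 1 (-1.21), and Tshz2 without WT replicate 2 (-1.38). Dlx1as (0.29 ± 0.24, edgeR adjusted p = 0.99), Arhgap6 (0.72 ± 0.27, edgeR adjusted p = 0.97) and Pcdh15 (0.94 ± 0.18, edgeR adjusted p = 0.10) did not pass.

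The remaining genes named for this term did not pass either. Chst9, a sulfotransferase gene, had a difference of 2.89 ± 0.58, with most of its UMIs of KI replicate 1 in 1 nucleus, Zfp804b, a zinc-finger gene, 0.93 ± 0.23 and the noncoding Gm26618 1.37 ± 0.36 (edgeR adjusted p = 0.11, 0.47 and 0.51). Gm10754 (-1.96 ± 0.44), 1110032A03Rik (-1.74 ± 0.39) and Etl4 (-0.71 ± 0.16) lay on the other side, each with an edgeR adjusted p of 0.28. The call count of 3 became 1 without WT replicate 2 and 8 without KI replicate 2.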

How the data were processed

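Single-nucleus RNA-seq was made from the hippocampi of 2 WT and 2 KI mice. The deposited matrices, written by Cell Ranger 7.0.1 per the file headers, hold raw UMI counts of genes by barcodes, deposited without normalization; the authors log-normalized them for their own analysis. The submitters' processing notes name mm10. The use of intronic reads and of strand is not given in the sources used here. Groups came from the GEO titles. Gene positions were read from GENCODE M21 (GRCm38).

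Members were selected by the rule in the first paragraph. The members and the 28 gene lists were chosen with earlier results of these data known. Raw counts were summed per library over members and tested with edgeR 4.0.16 (R 4.3.3; its low-count filter, TMM factors, quasi-likelihood test, Benjamini-Hochberg adjustment, threshold 0.05), because nuclei of a mouse are not independent, whereas the study tested single nuclei. Genes of the rule got no call, and 1 gene of the GABA list is not reported here by name. Classes were compared on 8 sums with library as a block, and shares by exact two-sided permutation (scipy 1.17.1) with exact Clopper-Pearson intervals. The oligodendrocyte and excitatory gates use marker UMIs.

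Named genes were up to 12 per direction past the threshold with a mean of at least 20 CPM and no overlap of the genotypes, by size of change, filled to 5 by p. For Vip and Lamp5 nuclei up to 6 per direction with at least 50 CPM in the higher class were named, for the class-by-genotype term up to 5, and also the genes of the lists.

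Doublets were scored with Scrublet in scanpy 1.11.5 and kept. Of the members, 3, 4, 0 and 1 scored above 0.25 and were left out as an alternative. Other alternatives were DESeq2 1.42.0, its size factors, library totals, no low-count filter, leaving out each library, a replicate block, stricter and looser Cnr1 and Adarb2 minimums, nuclei without Slc17a7 and nuclei thinned to 5000 UMIs. Removing each gene's highest nucleus was added after seeing the data. The tests were tried on simulated data. Depth was 785570, 581495, 728224 and 625699 UMIs in members, which limits genes of a few CPM to a few UMIs per library.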

Additional observations from a re-analysis of the deposited data

Results flagged for a closer look

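Of the genes for which the change between genotypes differed between members and the other inhibitory nuclei, 3 passed edgeR's test of the difference itself. For Gm32647 the log2 fold change of KI over WT in members minus that in the other inhibitory nuclei was -1.43 (SE 0.21, edgeR adjusted p = 0.0045). For Tshz2 it was -1.96 (SE 0.33, edgeR adjusted p = 0.0249). For both, more than 60% of the UMIs of each WT member library lay in 1 nucleus, and for Tshz2 this held in KI replicate 1 as well. For Adamtsl1 it was 1.58 (SE 0.28, edgeR adjusted p = 0.0249), and in members its UMIs lay in 13 of 84, 7 of 58, 24 of 66 and 14 of 70 nuclei. Leaving out 1 library lost the call for Adamtsl1 in 3 of the 4 fits, for Gm32647 in 2 and for Tshz2 in 1.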

How the results depend on the processing

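The 11 genes called between genotypes in members became 7 with library totals, 57 with no low-count filter, 28 with looser and 0 with stricter Cnr1 and Adarb2 minimums, and 0 with DESeq2 (181 at an unadjusted p below 0.05). Leaving out 1 library gave 1 to 187 calls. Without each gene's highest nucleus per library, an alternative chosen after seeing the data, 26 genes were called, 10 of them among the 11, and Pcdh15 was lost. With the replicate block 2 genes were called, Apod and Malat1. Replicate numbers carried a correlation of deviations of -0.019, which with 2 libraries per genotype cannot tell whether they pair the mice. DESeq2 size factors, the doublet limit, the Slc17a7 limit and thinning gave 11, 9, 13 and 12 calls, of which 11, 9, 8 and 5 were among the 11. Of the named results, Pcdh15 turned to -0.039 without nuclei with 2 or more Slc17a7 UMIs and Gm32647 to 0.27 without its highest nucleus.

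The class-by-genotype calls numbered 3, and 0 with DESeq2, 5 with library totals, 13 with no low-count filter, 1 without each gene's highest nucleus and 1 to 8 with 1 library left out. Members against Vip nuclei gave 408 calls, 212 with DESeq2, 243 after thinning and 239 to 323 with 1 library left out. The split of higher against lower was 230 to 178, and 180 to 249 with library totals or 331 to 128 with no filter. Members against Lamp5 nuclei gave 558 calls, 353 with DESeq2 and 388 to 515 with 1 library left out. The split was 293 to 265, and 249 to 315 with library totals or 416 to 207 with no filter.

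The difference in the share of all nuclei (0.037 percentage points) was -0.028 with the stricter rule, 0.089 with the looser rule, -0.153 after thinning and -0.0054 to 0.0796 with 1 library left out. Thinning kept only nuclei of at least 5000 UMIs. The difference in the share of inhibitory nuclei (-1.48) was -3.52 after thinning and -2.10 to -0.867 with 1 library left out. With 58 to 84 nuclei and 2 mice per genotype, genes of a few CPM could not be judged.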
